A study of Mus musculus with 8 samples.

Results

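The 10 genes described here make, store, take up or break down serotonin and dopamine, except *Fev*, a transcription factor of serotonin neurons. They are *Tph1*, *Tph2*, *Th*, *Ddc*, *Fev*, *Slc18a2*, *Slc6a4*, *Slc6a3*, *Maoa* and *Maob*. They were the rows of the count table whose symbol equals one of these names, 10 of 24015 rows, and all 10 were found. The list was drawn up with earlier results of these counts in view, in which *Tph1* had been called lower in 1b+/- than in WT. The *Tph1* values of that comparison are therefore a description and carry no test, and the other comparisons of *Tph1* reuse either its WT or its 1b+/- libraries. Messenger RNA had been sequenced from 8 mice at postnatal day 7 (P7), all on a C57BL/6N background. WT mice carried no deletion (n = 2, both male). The 1b+/- mice were heterozygous (n = 4, replicates 1 and 2 male, 3 and 4 female) and the 1b-/- mice homozygous (n = 2, both female) for a CRISPR/Cas9 deletion of 1b, a conserved non-coding interval of the sodium channel gene *Scn1a*. The mutant animals descend from 1 deletion line, each library was from 1 animal by the labels, and sex and genotype cannot be told apart between WT and 1b-/-. The comparisons ask how monoamine genes stand in the brain when this interval is lost from 1 or both alleles.

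Serotonin is made from tryptophan in 2 steps. A tryptophan hydroxylase, which sets the rate, is followed by the decarboxylase encoded by *Ddc*, and dopamine is made by tyrosine hydroxylase (*Th*) and the same decarboxylase. *Tph2* is the hydroxylase of serotonin neurons, whose cell bodies lie in the raphe nuclei of the brainstem, and *Tph1* is the hydroxylase of peripheral cells such as the enterochromaffin cells of the gut, and of the pineal gland. Dopamine neurons lie mainly in the ventral midbrain. Their axons reach the forebrain, whereas most of the messenger RNA stays near the cell body. In the first postnatal week some thalamic neurons that make no serotonin are known to carry the serotonin transporter and the vesicular transporter for a time.

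The counts sum over all transcripts of a gene and so do not separate start sites. In mm9, *Tph1* spans chr7:53902500-53927907 and *Tph2* spans chr10:114515697-114622078, both on the minus strand, and no other annotated gene overlaps either. RefSeq starts with promoter sequence were found for 9 of the 10 genes (11 starts, GRCm38.p6). The 150 bases before each start of the 2 hydroxylase genes are shown because *Tph1* and *Tph2* are the pair compared below and their 5′ ends differ. Capitals mark TATAA, or CCAAT, on either strand (a CCAAT on the other strand reads ATTGG). No base is shared by 2 matches.
Tph1, upstream start, minus strand of chr7:46672538-46672687: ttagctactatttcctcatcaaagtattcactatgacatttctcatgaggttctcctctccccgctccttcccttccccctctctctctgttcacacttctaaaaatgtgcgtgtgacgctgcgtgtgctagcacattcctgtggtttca
Tph1, downstream start, minus strand of chr7:46667378-46667527: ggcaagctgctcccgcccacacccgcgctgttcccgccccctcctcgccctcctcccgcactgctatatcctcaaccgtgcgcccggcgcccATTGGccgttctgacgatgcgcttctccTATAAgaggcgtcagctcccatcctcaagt
Tph2, minus strand of chr10:115185023-115185172: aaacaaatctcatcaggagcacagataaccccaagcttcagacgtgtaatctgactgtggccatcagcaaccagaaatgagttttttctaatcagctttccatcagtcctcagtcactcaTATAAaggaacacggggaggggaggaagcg
TATAA was present in the window of *Tph2* and of the downstream start of *Tph1*, and the latter also held CCAAT. Neither motif was in the window of the upstream *Tph1* start. Of 32851 windows of the same length, 14.2% held TATAA and 24.5% held CCAAT on either strand. These matches describe letters and not binding.

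The libraries held 2947770 to 20878772 counts, so that 3 counts, the upper limit that a count of 0 allows, corresponded to levels of 0.145 to 1.0 CPM (counts relative to library size, scaled by trimmed mean of M values). These limits cover counting error only. *Scn1a* was 45.1 and 40.5 CPM in WT, 15.7 to 26.7 CPM in 1b+/- and 2.0 to 3.18 CPM in 1b-/-, in the order of the genotypes, and sex-linked genes matched the sex labels in all 8 libraries. The labels name the tissue hippocampus and the methods of the study name it forebrain. A list of 12 forebrain genes summed to 2019 to 4134 CPM and a list of 12 hippocampal genes to 286 to 490 CPM, and 18 midbrain and hindbrain genes to 6.68 to 94.1 CPM. As the tissue was sequenced in bulk, fewer cells of a type and less RNA per cell cannot be told apart.

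Most monoamine genes were near the limit of detection. Per length of exon, as RPKM (CPM per kilobase), *Maoa*, which oxidizes serotonin and noradrenaline and is made by many cell types, was highest with a mean level of 10.2 ± 1.13 RPKM (SD over the 8 libraries). *Slc18a2*, the vesicular monoamine transporter, followed at 5.29 ± 1.36 RPKM, and *Maob*, the second oxidase, at 1.61 ± 0.275 RPKM. The ranges of these 3 genes over the libraries did not overlap. Below them came *Tph1* (0.705 ± 0.602 RPKM), *Th* (0.555 ± 0.537 RPKM), *Ddc* (0.389 ± 0.158 RPKM) and *Slc6a4*, the serotonin transporter (0.350 ± 0.107 RPKM). *Tph2* (0.302 ± 0.0991 RPKM), *Fev* (0.281 ± 0.264 RPKM) and *Slc6a3*, the dopamine transporter (0.123 ± 0.0685 RPKM), were lowest. From *Maob* down, every neighbour in this order overlapped with the next in its range. The 8 libraries together held 3371 *Maoa* counts and 1659 *Slc18a2* counts, but only 63 *Tph2*, 42 *Fev* and 37 *Slc6a3* counts. *Slc6a3* did not reach 1 CPM in any library and was the only one of the 10 genes left out of the test by the filter of 1 CPM in at least 1 library.

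The genes also differed in how far their libraries spread. Relative to counting error, *Tph1* spread most, with a chi-square per degree of freedom of 18.3 over the 8 libraries, followed by *Th* (9.10) and *Slc18a2* (9.04). *Maoa* had 3.65, *Fev* 2.78, *Ddc* 1.98, *Maob* 1.55 and *Slc6a4* 1.39. *Tph2* (1.01) and *Slc6a3* (0.784) spread about as much as counting alone gives. The value of *Tph1* includes the difference it was selected for. As a share of the mean, the SD over libraries was smallest for *Maoa* (11%) and largest for *Th* (96.8%).

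**Figure D1:**
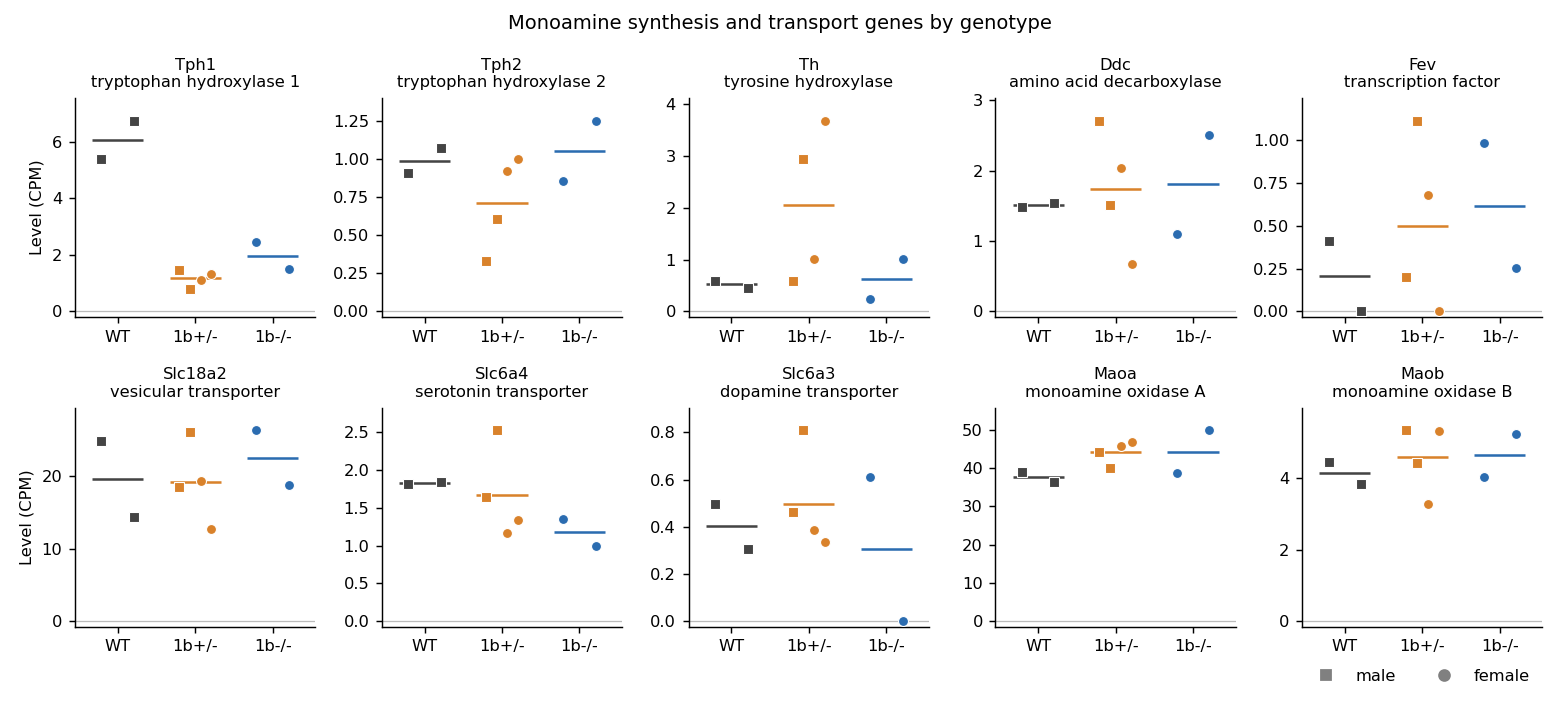
Level of each of the 10 genes in CPM (counts relative to library size, linear axes that include 0) by genotype. Each point is 1 library (squares male, circles female) and each horizontal line is the mean of a genotype (WT n = 2, 1b+/- n = 4, 1b-/- n = 2). The 2 WT libraries are above all others for *Tph1*, at 5.37 and 6.74 CPM, while for *Tph2* the genotypes overlap.

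*Tph1* was higher in WT than in both mutant genotypes. WT replicate 1 had 65 *Tph1* counts (5.37 CPM) and WT replicate 2 had 44 (6.74 CPM). In 1b+/- there were 22, 8, 23 and 4 counts in replicates 1 to 4 (1.45, 0.808, 1.11 and 1.34 CPM). In 1b-/- there were 20 and 6 (2.45 and 1.5 CPM). WT did not overlap with either mutant genotype. The 1b-/- libraries lay between 1b+/- and WT, but replicate 2 was above 1b+/- replicate 1 by less than 1 count. In 1b-/- replicate 2, 1 count was 0.25 CPM, and the 2 levels were 1.5 and 1.45 CPM. The mean ± SD was 6.06 ± 0.967 CPM for the 2 WT animals, 1.18 ± 0.283 CPM for the 4 1b+/- animals and 1.98 ± 0.669 CPM for the 2 1b-/- animals. The log2 fold change of *Tph1* in 1b+/- against WT was -2.36 (SE 0.35). For 1b-/- it was -1.54 (SE 0.43) against WT and 0.81 (SE 0.41) against 1b+/-. Neither of the last 2 comparisons passed the quasi-likelihood test of edgeR after Benjamini-Hochberg adjustment (adjusted p = 1.0 in both), and they share WT or 1b+/- libraries with the comparison that put *Tph1* on the list. Its mean was lowest with 1 deleted allele, while that of *Scn1a* was lowest with 2. Within 1b+/-, *Tph1* was 1.45 and 0.808 CPM in the males and 1.11 and 1.34 CPM in the females (log2 0.01, SE 0.52).

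The position of WT rests on 2 animals. Leaving out any one of the 6 libraries of WT and 1b+/- moved the log2 fold change of *Tph1* in 1b+/- against WT to between -2.52 and -2.19, and in each of these 6 fits *Tph1* no longer passed the threshold. It did not pass with sex as a covariate either, although the log2 fold change stayed at -2.36.

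*Tph2*, the neuronal hydroxylase, did not show this order. It had 11 and 7 counts in WT (0.91 and 1.07 CPM), 5, 6, 19 and 3 counts in 1b+/- (0.33, 0.606, 0.921 and 1.0 CPM) and 7 and 5 counts in 1b-/- (0.857 and 1.25 CPM). The genotypes overlapped, and the lowest level was in 1b+/- replicate 1. Within 1b+/-, both females were above both males (log2 1.04, SE 0.73, females over males, unadjusted p = 0.184 by edgeR). The log2 fold change was -0.53 (SE 0.63) in 1b+/- against WT, and for 1b-/- it was 0.06 (SE 0.76) against WT and 0.59 (SE 0.68) against 1b+/-. None passed the edgeR test (adjusted p = 1.0 in each). With standard errors of this size, a change of *Tph2* by 1 on the log2 scale was not detectable at this depth.

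The 2 hydroxylases can be set against each other within a library, where depth and scaling cancel. There were 5.91 *Tph1* counts per *Tph2* count in WT replicate 1 (exact 95% interval 3.09 to 12.4) and 6.29 in WT replicate 2 (2.81 to 16.5). In the 1b+/- replicates 1 to 4 the ratio was 4.40 (1.63 to 14.9), 1.33 (0.406 to 4.66), 1.21 (0.631 to 2.35) and 1.33 (0.226 to 9.10). In the 1b-/- replicates it was 2.86 (1.16 to 8.0) and 1.20 (0.305 to 4.97). Both WT ratios were above all others, and 1b+/- replicate 1, where *Tph2* was lowest, came next. As *Tph1* was selected on these libraries, the ratios are a description. Per length of exon the ratio was 4.62 and 4.91 in WT and 0.938 to 3.44 in the 6 mutant libraries, and in 4 of these it lay between 0.938 and 1.04.

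**Figure D2:**
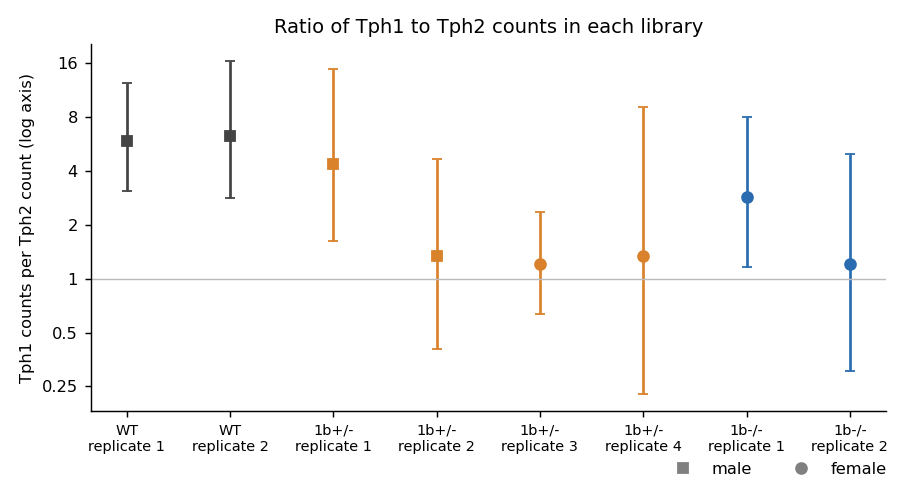
*Tph1* counts per *Tph2* count in each library (log axis), with exact 95% binomial intervals that cover counting error only. Squares are males and circles females. WT libraries have ratios of 5.91 and 6.29, and the mutant libraries lie between 1.20 and 4.40.

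Among the other genes of synthesis, *Th*, the hydroxylase of the dopamine pathway, varied most within 1b+/-. It was 0.579 and 0.460 CPM in WT, 0.594, 2.93, 1.02 and 3.67 CPM in 1b+/- replicates 1 to 4, and 0.245 and 1.0 CPM in 1b-/-. Replicates 2 and 4 of 1b+/-, a male and a female, stood above all other libraries, with 29 and 11 counts. The log2 fold change of *Th* was 1.75 (SE 0.87) in 1b+/- against WT and -1.74 (SE 0.95) in 1b-/- against 1b+/-, and neither passed the edgeR test (unadjusted p = 0.0665 and 0.0935, adjusted p = 1.0 in both). Without replicate 2 the first of these was 1.33, and without replicate 4 it was 1.44.

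*Ddc*, which serves both pathways, was 1.49 and 1.53 CPM in WT, 2.71, 1.51, 2.04 and 0.668 CPM in 1b+/-, and 1.10 and 2.50 CPM in 1b-/-. Its 1b+/- range enclosed all the other libraries, and its log2 fold changes were 0.33 (SE 0.51) in 1b+/- and 0.16 (SE 0.64) in 1b-/- against WT. On the opposite strand the annotation places *1700042O10Rik* within *Ddc*, and the use of strand in counting was not stated. *Fev*, a transcription factor that marks serotonin neurons, was 0.413 and 0 CPM in WT, 0.198, 1.11, 0.679 and 0 CPM in 1b+/-, and 0.979 and 0.25 CPM in 1b-/-. The 2 libraries with no *Fev* count allowed up to 0.460 CPM (WT replicate 2) and 1.0 CPM (1b+/- replicate 4).

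The transporters overlapped between genotypes in most comparisons. *Slc18a2* was 24.8 and 14.4 CPM in WT, 18.5, 26.1, 19.3 and 12.7 CPM in 1b+/-, and 26.3 and 18.8 CPM in 1b-/-. The spread within each genotype was as wide as that between them (log2 -0.02, SE 0.28, in 1b+/- and 0.20, SE 0.33, in 1b-/- against WT). *Slc6a4* was 1.82 and 1.84 CPM in WT, 1.65, 2.52, 1.16 and 1.34 CPM in 1b+/-, and 1.35 and 1.0 CPM in 1b-/-. Both 1b-/- libraries were below both WT libraries, but the difference was small beside its error (log2 -0.59, SE 0.57, adjusted p = 1.0 by the edgeR quasi-likelihood test), and with sex as a covariate it was 0.17. Within 1b+/-, both females were below both males in *Slc6a4* (log2 -0.76, SE 0.51, females over males, unadjusted p = 0.164 by edgeR). An antisense gene, *Gm12343*, overlaps *Slc6a4*. *Slc6a3* held 6 and 2 counts in WT, 7, 8, 8 and 1 in 1b+/- and 5 and 0 in 1b-/-, and the count of 0 allowed up to 0.751 CPM. In a fit with no filter its log2 fold change was 0.28 (SE 0.97) in 1b+/- and -0.18 (SE 1.21) in 1b-/- against WT.

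The oxidases had the smallest SD as a share of the mean among the 10 genes, although *Maoa* spread more than counting error alone. *Maoa* was 39.0 and 36.3 CPM in WT, 44.1, 40.1, 45.7 and 46.7 CPM in 1b+/-, and 38.7 and 49.8 CPM in 1b-/-. All 1b+/- libraries were above both WT libraries, by a log2 fold change of 0.22 (SE 0.16) that did not pass the edgeR test (adjusted p = 1.0). *Maob*, which is found mainly in astrocytes and in serotonin neurons, was 4.46 and 3.83 CPM in WT, 5.35, 4.44, 3.30 and 5.34 CPM in 1b+/-, and 4.04 and 5.26 CPM in 1b-/-, with no difference beyond the spread (log2 0.11, SE 0.30, and 0.13, SE 0.36, against WT). A list of 10 astrocyte genes summed to 831 to 1161 CPM, and none of them was called by edgeR in a comparison of genotypes. At an unadjusted p under 0.05, 2 were higher in 1b+/- than in WT, 1 was lower in 1b-/- than in WT and 1 was lower in 1b-/- than in 1b+/-, and all 10 had lower fitted values in the last. The shares over all genes were 4.34%, 1.64% and 1.23% in these comparisons. Both oxidase genes lie on the X chromosome. Within 1b+/-, *Maoa* differed between females and males by a log2 of 0.13 (SE 0.19, females over males) and *Maob* by -0.30 (SE 0.36).

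Over the list, 1 of the 9 genes tested was called in 1b+/- against WT, which was *Tph1* and was lower, against 0.0834% of all 15588 genes tested (13 genes). As that comparison chose *Tph1*, nothing is read from this count. Of the other 8 genes none was called, and their lowest unadjusted p was 0.0665 (*Th*). None of the 9 was called when 1b-/- was set against WT or against 1b+/-, where 0.00642% of all genes were called in each. At an unadjusted p under 0.05 the first of these had 1 gene (*Tph1*) and the second 0 by the same edgeR test, beside 1.64% and 1.23% of all genes. None was called in females against males within 1b+/- (background 0.0321%), with 0 at an unadjusted p under 0.05 beside 2.66% of all genes. DESeq2 and the likelihood ratio test called none in these 3 comparisons. The median log2 fold change of the 9 genes was 0.11 in 1b+/- against WT, beside 0.01 over all genes tested. For 1b-/- the median was 0.13 against WT and 0.02 against 1b+/-, beside -0.01 and -0.00. Groups did not overlap for 3 of the 9 genes in 1b+/- against WT (*Tph1* lower, *Th* and *Maoa* higher), beside 12.3% of all genes. In 1b-/- against WT they did not overlap for 2 (*Tph1* and *Slc6a4*, both lower), beside 23.6%, and in 1b-/- against 1b+/- for 1 (*Tph1*, higher), beside 7.39%. The gaps of *Th* (0.594 against 0.579 CPM) and of *Tph1* in the last comparison were each less than 1 count. The replicates are separate samples by their labels alone, so p-values measure the spread between these samples.

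**Figure D3:**
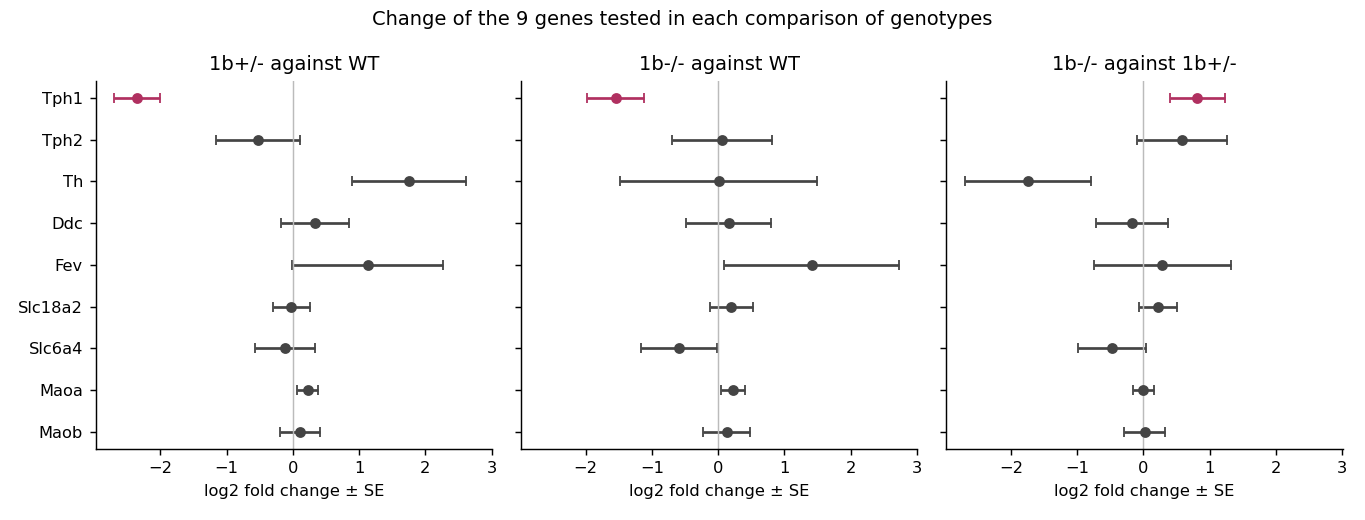
Log2 fold change (points) with its standard error (bars) of the 9 genes tested, from the edgeR quasi-likelihood fit of all 8 libraries. *Tph1*, in colour, was selected on the left comparison and lies at -2.36 there. In the same comparison the other 8 genes lie between -0.53 and 1.75, with *Th* and *Fev* furthest to the right and with wide errors.

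*Tph1* was 1 of 13 genes called in 1b+/- against WT, all of them lower. The other 12 are mostly genes of surface and lining epithelia such as *Krt13*, *Krt15* and *Upk1b*. Their sum was 325 CPM in WT replicate 1 and 78.5 CPM in WT replicate 2, and 7.42 to 13.8 CPM in the other libraries. Each of these 12 genes was 2.16 to 7.09 times as high in WT replicate 1 as in replicate 2, whereas *Tph1* was 0.797 times as high. The whole list of 17 epithelial and mesothelial genes summed to 323 and 106 CPM in WT, to 21.4 to 56.3 CPM in 1b+/- and to 22.6 and 24.3 CPM in 1b-/-, with no gene at 0 in WT. In 1b+/- against WT 10 of the 17 were called lower, beside 0.0834% of all genes. As the list was drawn up with earlier results of these counts known, nothing is read from this count. In sum the epithelial and mesothelial genes were highest in WT, as *Tph1* was, and stood higher in WT replicate 1 than in replicate 2. The *Tph1* levels of the WT libraries rest on 65 and 44 counts, and their order was not tested. Single genes of the list differed from the sum, such as *Cdh1*, which was 21.5 and 27.4 CPM in WT and highest in 1b+/- replicate 1 (33.7 CPM). Their part in the *Tph1* difference was not tested.

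Markers of other cells that make or hold serotonin were measured as well. Of 14 pineal gland genes 13 were in the table, and their sum was 21.1 and 18.5 CPM in WT, 8.19 to 29.0 CPM in 1b+/- and 11.9 and 15.8 CPM in 1b-/-, most of it *Otx2* (4.65 to 24.8 CPM), which the choroid plexus also expresses. None of the 8 pineal genes tested was called by edgeR in any comparison of genotypes. At an unadjusted p under 0.05, 1 was lower in each mutant genotype against WT, beside 4.34% (1b+/-) and 1.64% (1b-/-) of all genes. In each of these comparisons 6 of the 8 were lower than in WT, with a median log2 fold change of -0.59 in 1b+/- and -0.28 in 1b-/-. *Crx*, a transcription factor of pinealocytes, was 0.744 and 1.07 CPM in WT, 0 to 0.505 CPM in 1b+/- and 0.612 and 1.0 CPM in 1b-/-. *Aanat*, the enzyme that commits serotonin to melatonin, was under the filter. It had no count in either WT library, which allowed up to 0.248 and 0.460 CPM, and was 0 to 0.505 CPM elsewhere. Of the 13 pineal genes, 3 had no count in each WT library, and 0 to 8 had none in the other libraries. Mast cells make serotonin through *Tph1* in rodents. Their 10 genes summed to 74.2 to 91.1 CPM over all libraries, nearly all of it *Kit*, which brain neurons express too. Of these, 5 were tested and none was called by edgeR in any comparison of genotypes. In 1b+/- against WT 4 were higher and 1 lower (median log2 fold change 0.38), with 1 higher at an unadjusted p under 0.05. In 1b-/- against WT 2 were higher and 3 lower (median -0.02). In 1b-/- against 1b+/- 1 was lower at an unadjusted p under 0.05. *Cpa3*, a mast cell protease, was 3.97 and 0.771 CPM in WT and highest in 1b+/- replicate 1 (7.19 CPM). Platelets store serotonin without making it. Their 10 genes summed to 58.7 and 28.8 CPM in WT and 13.3 to 20.3 CPM in the others. The difference was mainly *Ppbp* (45.1 and 10.7 CPM in WT, 0 to 1.21 CPM elsewhere), the only platelet gene called, and *Itgb3*, the most abundant after it, was 4.22 and 4.29 CPM in WT against 4.01 to 8.51 CPM. The 12 choroid plexus genes, led by the thyroid hormone carrier *Ttr*, summed to 1077 and 1133 CPM in WT, 312, 116, 264 and 1081 CPM in 1b+/- and 517 and 950 CPM in 1b-/-, and 0 of 12 were called by edgeR. At an unadjusted p under 0.05, 4 were lower in 1b+/- than in WT and 1 was higher in 1b-/- than in 1b+/-. Over all genes, in either direction, these shares were 4.34% and 1.23%. Replicate 4 of 1b+/- and replicate 2 of 1b-/- were near WT in this sum, while their *Tph1* was 1.34 and 1.5 CPM (4 and 6 counts). In the other mutant libraries the sum was 116 to 517 CPM and *Tph1* 0.808 to 2.45 CPM, both below WT. The part of these cell types in the *Tph1* values was not tested.

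**Figure D4:**
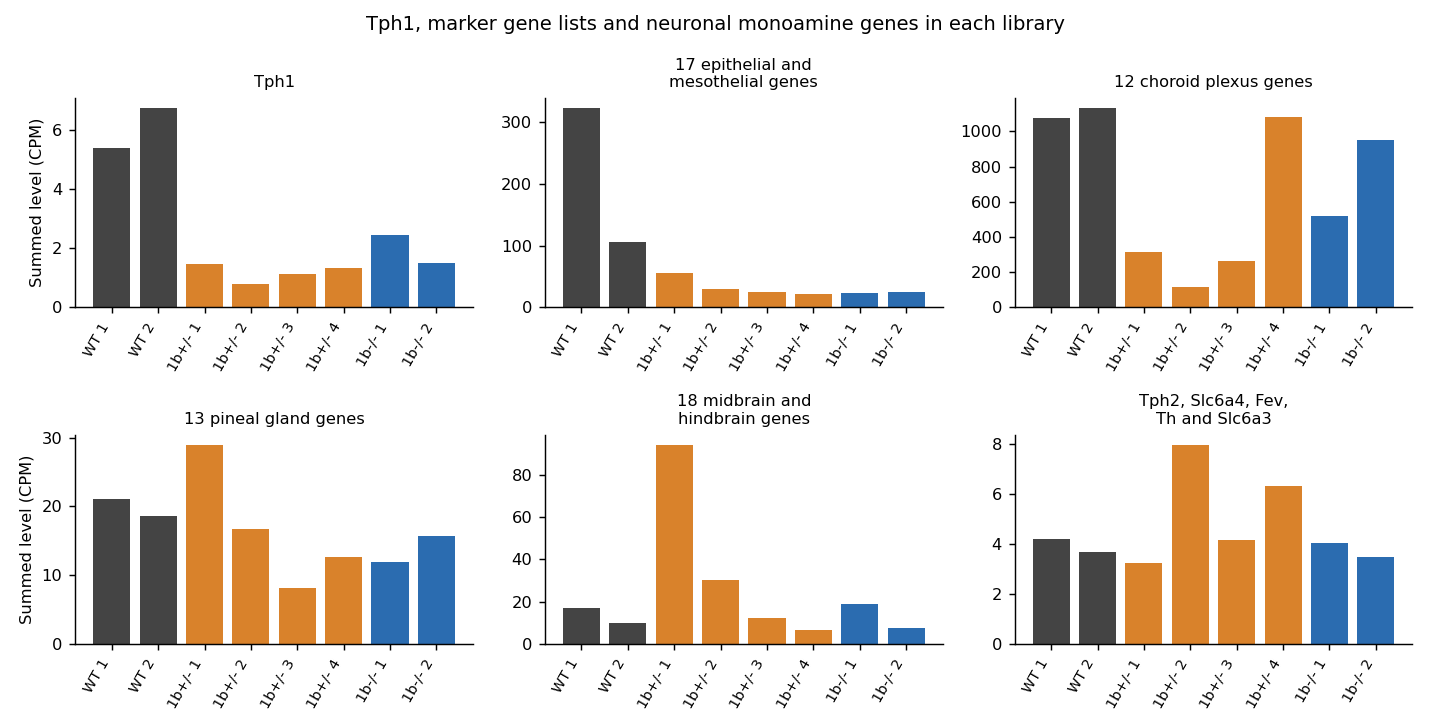
Level of *Tph1*, summed level of 4 marker lists, and summed level of *Tph2*, *Slc6a4*, *Fev*, *Th* and *Slc6a3* in each library (CPM, bars from 0, WT grey, 1b+/- orange, 1b-/- blue, numbers are replicates). The epithelial sum is 323 and 106 CPM in the WT libraries, where *Tph1* is 5.37 and 6.74 CPM (65 and 44 counts). The midbrain and hindbrain sum is highest in 1b+/- replicate 1 (94.1 CPM). The 5 neuronal genes sum to 3.23 CPM there, close to the 3.51 CPM of 1b-/- replicate 2. The regional sum is second in 1b+/- replicate 2, where the 5 neuronal genes are highest (7.98 CPM).

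The genes of serotonin and dopamine neurons were set beside the midbrain and hindbrain markers, since their cell bodies lie in those regions. *Tph2*, *Slc6a4*, *Fev*, *Th* and *Slc6a3* together were 4.22 and 3.68 CPM in WT, 3.23, 7.98, 4.17 and 6.34 CPM in 1b+/- and 4.04 and 3.51 CPM in 1b-/-. The 18 midbrain and hindbrain genes summed to 17 and 10.1 CPM in WT, 94.1, 30.4, 12.2 and 6.68 CPM in 1b+/-, and 18.7 and 7.51 CPM in 1b-/-. 1b+/- replicate 1 had the most of the regional genes (*Tal1* 21.4 CPM, *Gata3* 16.8 CPM). Its sum of the 5 monoamine genes, 3.23 CPM, was lowest but close to the 3.51 CPM of 1b-/- replicate 2. *Ddc*, which is not among the 5, was highest in 1b+/- replicate 1 (2.71 CPM). Replicate 2 of 1b+/- was second in the regional genes and had the most of the 5, with *Slc6a4* and *Fev* at their highest. In 1b+/- replicate 4, *Th* was highest while the regional genes were lowest, 12 of the 18 having no count in this shallowest library. *Slc6a2*, the noradrenaline transporter, was highest in 1b+/- replicate 1, at 3.30 CPM, and 0 to 1.21 CPM elsewhere. Genes of the identity of monoamine neurons were tested from 3 lists, and none was called by edgeR in any comparison of genotypes. In 1b+/- against WT the median log2 fold change was 0.29 over 8 serotonergic genes (1 higher at an unadjusted p under 0.05), 0.09 over 12 dopaminergic genes (1 higher and 1 lower) and 0.36 over 5 noradrenergic genes (0). In 1b-/- against WT the medians were -0.10, -0.13 and -0.19, with 1 dopaminergic gene lower at an unadjusted p under 0.05. Against 1b+/- the medians for 1b-/- were -0.75, -0.62 and -0.36, with 1 dopaminergic gene higher and 1 lower. The shares over all genes at this unadjusted threshold were 4.34%, 1.64% and 1.23% in the 3 comparisons. Thalamic markers, a list of 10 genes added after the values were seen, summed to 539 and 259 CPM in WT, 551, 314, 297 and 239 CPM in 1b+/- and 283 and 392 CPM in 1b-/-. The 2 libraries lowest in this sum, 1b+/- replicate 4 and WT replicate 2, were also the 2 lowest in *Slc18a2*, and WT replicate 1 was high in both. 1b+/- replicate 1 had the highest thalamic sum (551 CPM) and 18.5 CPM of *Slc18a2*. Single genes of the list differed from the sum. *Slc17a6* and *Lhx9* were higher there than in WT replicate 1 (172 and 106 against 140 and 96.4 CPM). *Tcf7l2* was lower there (62.9 against 118 CPM). *Slc18a2* was highest in 1b-/- replicate 1 and 1b+/- replicate 2, whose thalamic sums were 283 and 314 CPM. The part of either region in the levels of these genes was not tested.

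The rest of the pathway was examined from lists of other enzymes and transporters, of genes for tetrahydrobiopterin, the cofactor that all 3 hydroxylases need, and of receptors. Of 49 such genes 40 were tested, and none was called by edgeR or DESeq2 in any comparison of genotypes. At an unadjusted p under 0.05, edgeR gave 1 gene in 1b+/- against WT (*Htr2c*), none for 1b-/- against WT and 2 for 1b-/- against 1b+/- (*Htr7* and *Drd2*). Over all genes these shares were 4.34%, 1.64% and 1.23%. Among 12 other enzymes and transporters, 8 were tested, with a median log2 fold change of 0.13 in 1b+/- against WT (all genes tested 0.01). *Aldh5a1*, a dehydrogenase of GABA breakdown, was 53.6 to 76.9 CPM, and *Slc29a4*, the plasma membrane monoamine transporter, 36.9 to 46.7 CPM, with log2 fold changes of -0.24 (SE 0.15) and -0.08 (SE 0.16). Of 9 cofactor genes 8 were tested, and 7 of these were higher and 1 lower in 1b+/- than in WT without passing the test (median 0.15). *Pts*, which encodes a synthase of the cofactor, was 12.5 to 17.9 CPM, with a log2 fold change of 0.18 (SE 0.20). In 1b-/- against WT the medians were 0.01 for the enzymes and transporters and 0.12 for the cofactor genes, beside -0.01 over all genes.

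Of 14 serotonin receptors 11 were tested, and 4 were higher and 7 lower in 1b+/- than in WT (median -0.12). *Htr2c*, which is abundant in choroid plexus as well as in neurons, had the lowest value of them. It was 16.1 and 13.5 CPM in WT, 7.79, 3.53, 8.58 and 8.68 CPM in 1b+/- and 8.08 and 12.8 CPM in 1b-/-. Both WT libraries were above all 6 mutant libraries, and the log2 fold change in 1b+/- was -1.07 (SE 0.32), which did not pass the edgeR test (unadjusted p = 0.00575, adjusted p = 0.837). The choroid plexus sum was lowest in 1b+/- replicate 2, as was *Htr2c*, and it was as high in 1b+/- replicate 4 as in WT, where *Htr2c* was not. The part of choroid plexus in the *Htr2c* values was not tested. *Htr5a*, the serotonin receptor with the highest mean CPM, was 6.68 to 15.3 CPM and overlapped between genotypes (log2 -0.17, SE 0.29). In 1b-/- against 1b+/-, *Htr7*, named after its values were seen, was higher in every 1b-/- library than in any of 1b+/- (log2 0.65, SE 0.27, unadjusted p = 0.0335, adjusted p = 1.0).

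Of 5 dopamine receptors 4 were tested. *Drd1a*, the D1 receptor under its older symbol, was 25.5 and 19.5 CPM in WT, 17.9 to 23.1 CPM in 1b+/- and 25.8 and 22.5 CPM in 1b-/- (log2 -0.16, SE 0.18, in 1b+/- against WT). *Drd2*, the D2 receptor, was 6.95 and 7.20 CPM in WT, 5.68 to 8.19 CPM in 1b+/- and 11.8 and 8.26 CPM in 1b-/-. Both 1b-/- libraries were above the rest, replicate 2 by less than 1 count over the highest of 1b+/- (8.26 against 8.19 CPM). The log2 fold change against 1b+/- was 0.54 (SE 0.24), which did not pass the test (unadjusted p = 0.0439, adjusted p = 1.0 by edgeR). All 9 adrenergic receptors were tested, with *Adra2a* (10.9 to 19.9 CPM) and *Adra2c* (5.96 to 10.3 CPM) the most abundant and a median log2 fold change of 0.10 in 1b+/- against WT.

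**Figure D5:**
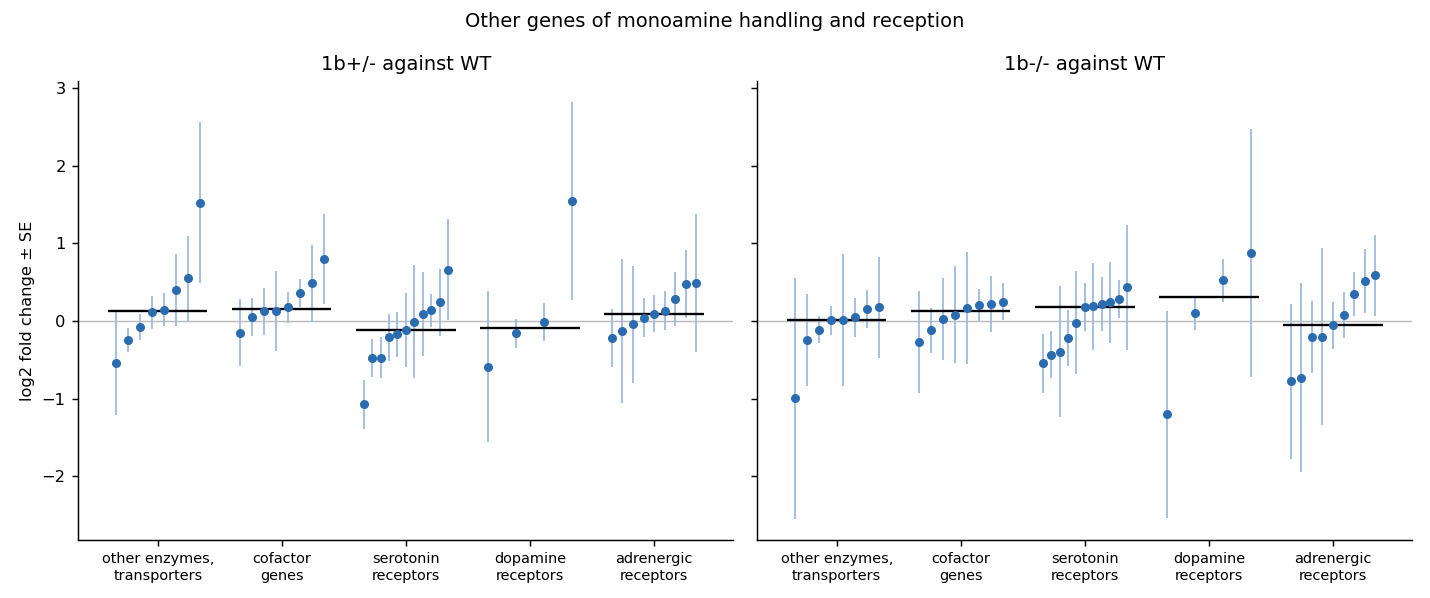
Log2 fold change (points, ± SE) of the other genes of monoamine handling and reception that were tested, in order of size within each list, with the median of the list as a black line. The lowest point on the left among serotonin receptors is *Htr2c* at -1.07. The medians lie between -0.12 and 0.15 in 1b+/- against WT, and no gene shown passed the test.

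Across the 8 libraries, the genes whose log2(CPM + 1) was most like that of *Tph1* were *Nol12* (Pearson r = 0.969), *Mt2* (0.954), *Slco1a4* (0.949), *Dnajb13* (0.936) and *Tenm2* (0.923), out of 13961 genes with a mean of at least 1 CPM. *Slco1a4*, an organic anion transporter of brain capillaries and choroid plexus, was 6.86 and 9.35 CPM in WT and 2.0 to 4.04 CPM in the mutants. Most like *Tph2* were *Slitrk1* (0.973), *Bccip* (0.954), *Rbbp5* (0.943), *Dyrk2* (0.940) and *Dcun1d3* (0.940). These rankings describe 8 points that share libraries and depth, and the first 5 of so many genes are picked for high values. The r of *Tph1* with the 8 other members tested was 0.33 for *Tph2*, 0.18 for *Slc6a4*, -0.08 for *Slc18a2*, -0.14 for *Ddc*, -0.25 for *Maob*, -0.37 for *Fev*, -0.60 for *Th* and -0.68 for *Maoa*. For the 12 genes called together with *Tph1* in 1b+/- against WT, the r with *Tph1* was 0.76 to 0.91, highest for *Upk1b*. All 13 share the difference they were called on.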

How the data were processed

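RNA was from 8 P7 mice. The authors sequenced strand-marking mRNA libraries as single-end reads, aligned them to mm9 (STAR 2.7.2) and counted them per gene (featureCounts). The deposited values are raw counts per gene symbol. The annotation release and the handling of strand and of multiply mapped reads were not given in the sources used here. All 8 columns were used, and 1572 of the 24015 rows had no count.

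Genes at 1 CPM or more in at least 1 library were kept (15588). Genotypes were compared with edgeR 4.0.16 (R 4.3.3), by its quasi-likelihood test with TMM scaling on all 8 libraries, adjusted by Benjamini-Hochberg at 0.05. Sexes were compared with 1b+/- divided by sex. The scripts were tested on simulated data. RPKM used the union of annotated exons (GENCODE, mm9). Alternatives were other filters, scalings and tests (DESeq2 1.42.0), sex as a covariate, only the groups compared, and omission of each library.

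The members and lists were chosen with earlier results of these data known. Named genes are the 10 members, in each list those past the threshold and the 2 with the highest mean CPM, genotype and sex check genes, and the 5 genes most like *Tph1* and *Tph2*. *Htr7*, *Crx*, *Aanat*, *Tcf7l2* and *En2* were named after their values were seen. The values of 1 further gene that this rule names are not reported here.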

Additional observations from a re-analysis of the deposited data

How the results depend on the processing

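The count of members called in 1b+/- against WT was 1 (*Tph1*). With sex as a covariate it was 0 by the quasi-likelihood test and 1 by the likelihood ratio test. It ranged from 0 to 1 when 1 library was left out, being 0 without each of the 6 WT and 1b+/- libraries. Over 17 alternatives the log2 fold change of *Tph1* there was -2.52 to -2.19. One of these, which added sex to the likelihood ratio test, was chosen after seeing the data. In 1b-/- against WT it was -2.0 to -1.29, and without 1b-/- replicate 1 its log2 fold change against 1b+/- was 0.36. No other member, and no gene of the 5 pathway lists, was called in any alternative run. Of 581 alternative fold changes of members, 554 moved by no more than their standard error and 27 by more, and 50 changed sign, none of them called. Of the 5 genes most like *Tph1*, 1 to 3 stayed among the first 5 when a library was left out, and of those most like *Tph2*, 0 to 2. Levels under about 1 CPM rest on few counts, down to 3 *Tph2* counts in the shallowest library, which limits what can be seen for *Tph2*, *Fev*, *Th* and *Slc6a3*. No paired analysis was possible because replicate numbers follow the order of deposit and pair no animals.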
